A study of Homo sapiens with 4 samples.

Results

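The squamous lineage transcription factors are 9 DNA-binding regulators of stratified epithelium, TP63, SOX2, KLF4, KLF5, GRHL1, GRHL2, GRHL3, OVOL1 and ZNF750. They were taken as a list of symbols and matched by Ensembl identifier to the 28729 genes of the expression table. A row was found for 8 of the 9, and OVOL1 was not analysed here. The cells were TU-177, an established human line of laryngeal squamous cell carcinoma (LSCC), and 4 RNA-seq libraries were made from them. Of these, 2 came from cells given a negative control shRNA (NC) and 2 from cells given an shRNA against SKA3 (SKA3-KD), a gene of the complex that couples kinetochores to microtubules. In both groups lentivirus carried the shRNA and puromycin selected the transduced cells, so NC and SKA3-KD share the line, the type of vector and the drug. The labels do not say how many shRNAs were used or whether replicates 1 and 2 were separate transductions, so p-values measure the spread between these libraries, which may be technical. The study's methods also describe Cas9-made SKA3-KD cells, whereas the labels of these libraries name shRNA. The comparison asks which transcripts differ when SKA3 is lowered.

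In stratified epithelium, TP63 encodes p63, which maintains basal cells, and SOX2 is a progenitor factor often amplified together with TP63 in squamous carcinoma. KLF5 is a Krüppel-like factor of proliferating basal cells, while KLF4 is known for barrier formation and late differentiation, where the p63 target ZNF750 acts with it. GRHL1, GRHL2 and GRHL3 are grainyhead-like factors of desmosomes, other cell junctions and the epidermal barrier, and OVOL1 represses genes of the progenitor and mesenchymal states.

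Values are FPKM, the fragments on a gene per kilobase of exon scaled to library size, so levels can be set side by side between genes per length. Steps between low values gave library sizes of 9015056 to 11966130 fragments, and the same steps gave the whole reads behind each value. SKA3 itself had 9.40 and 9.64 FPKM in NC 1 and NC 2 and 3.77 and 4.12 FPKM in SKA3-KD 1 and SKA3-KD 2 (log2 fold change -1.09, SE 0.07, limma adjusted p = 0.00806), where SE is the standard error. Without NC 1 its log2 fold change was -1.11, in a fit where no gene had a limma adjusted p under 0.05.

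The labelled cell type was checked against 8 squamous markers, of which 7 had a row. KRT5, a basal keratin, was listed at 0 in 3 libraries and had 4 reads in NC 2, while its partner KRT14 had 1 read in NC 1 and 0 elsewhere. KRT6A had 1 read in each of 2 libraries, and PKP1, a desmosomal plaque protein, stayed at 0.0179 to 0.0942 FPKM. These 4 markers were thus at 0 or at most 7 reads in every NC and SKA3-KD library, while TP63 had 31 to 40 reads, and KRT17 (29.4 to 49.1 FPKM) and S100A2 (9.77 to 10.7 FPKM) were well detected. The simple epithelial keratins KRT8 (430 to 453 FPKM) and KRT18 (31.1 to 39.2 FPKM) and the adhesion molecule EPCAM (2.73 to 2.95 FPKM) were present, and CDH1, the gene of E-cadherin, was at 0.149 to 0.447 FPKM. KRT17 fell (log2 fold change -0.53, SE 0.11, limma adjusted p = 0.0396) and KRT18 rose (log2 fold change 0.30, SE 0.05, limma adjusted p = 0.0332), and both were named after their values were seen. These 2 calls were lost when any 1 library was left out (limma adjusted p from 0.0656 to 0.167).

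**Figure D1:**
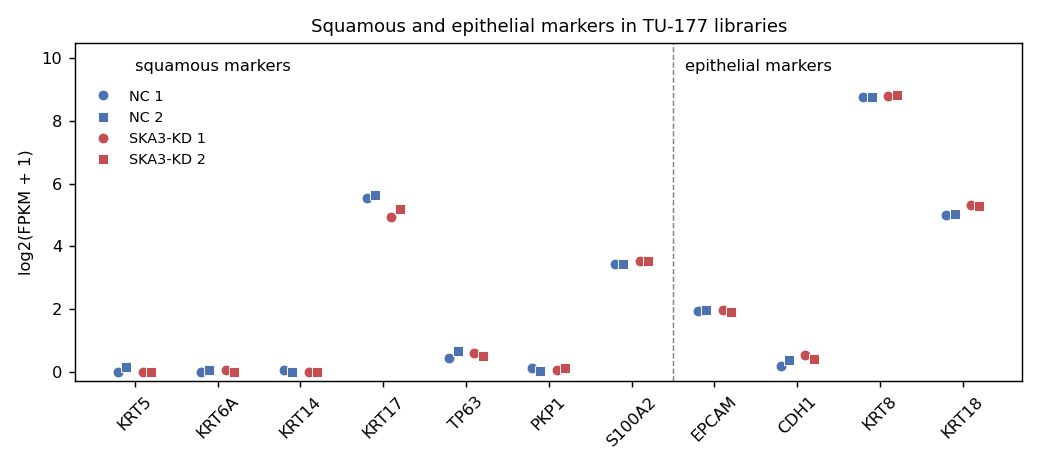
Squamous and epithelial markers in each library as log2(FPKM + 1), with circles for replicate 1, squares for replicate 2, blue for NC and red for SKA3-KD. KRT5, KRT6A, KRT14, TP63 and PKP1 lie near 0 in all 4 libraries, while KRT8 is highest at 430 to 453 FPKM.

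Most markers of other cells were low. Of 14 stromal and blood cell markers, 11 had a row and 3 reached a mean of 1 FPKM, and their summed level was 15.3 and 15.9 FPKM in NC against 9.48 and 9.87 FPKM in SKA3-KD. The 3 were the fibroblast collagen COL1A1, PDGFRB and DCN. COL1A1 had 3.22 and 3.99 FPKM in NC and 2.71 and 2.66 FPKM in SKA3-KD. PDGFRB went against the sum, with 2.88 and 2.46 FPKM in NC and 3.19 and 4.13 FPKM in SKA3-KD. The limma adjusted p was 0.14 for COL1A1 and 0.165 for PDGFRB. PTPRC of leukocytes had 1 read in all, LYZ of myeloid cells none, and the fibroblast collagen COL1A2 1 read. DCN, the matrix proteoglycan decorin, fell from 8.40 and 8.36 FPKM to 2.48 and 2.35 FPKM (log2 fold change -1.46, SE 0.07, limma adjusted p = 0.0065). Without NC 1, a fit in which no gene passed, its log2 fold change was -1.45. The part of such cells in the results was not tested. Of 8 glandular and ciliated airway markers, 4 had a row and none reached a mean of 1 FPKM. In RNA of whole cultures, fewer cells of a type and less RNA per cell cannot be told apart.

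Only KLF5 and KLF4 among the 8 regulators reached a mean of 1 FPKM. KLF5 had 47.5 and 42.4 FPKM in NC 1 and NC 2 and 40.2 and 38.1 FPKM in SKA3-KD 1 and SKA3-KD 2. KLF4 had 34.0 and 36.1 FPKM in NC and 34.1 and 36.4 FPKM in SKA3-KD. In mean level they ranked 1127 and 1376 among the 28729 genes. GRHL1 came next at 0.657 to 1.08 FPKM, then TP63 at 0.348 to 0.580, SOX2 at 0 to 0.400, GRHL3 at 0.106 to 0.237, ZNF750 at 0.0265 to 0.0685 and GRHL2 at 0.0183 to 0.0811 FPKM. In this order the ranges over the 4 libraries did not overlap between KLF5 and KLF4, KLF4 and GRHL1, GRHL1 and TP63, or GRHL3 and ZNF750. They overlapped between TP63 and SOX2, SOX2 and GRHL3, and ZNF750 and GRHL2, so these neighbours were not separated. KLF4 and KLF5 together held 95.4% to 96.9% of the reads on the 8 genes, or 2636 to 3650 reads in a library against 109 to 159 on the other 6.

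**Figure D2:**
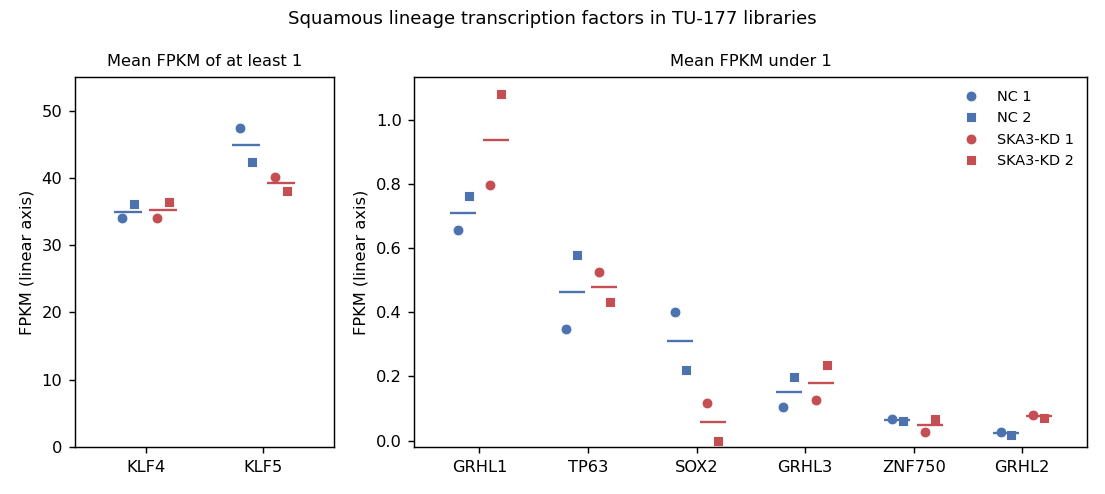
FPKM of the 8 regulators in each library on linear axes, with KLF4 and KLF5 on the left, the 6 genes with a mean under 1 FPKM on the right and bars at the group means. KLF5 and KLF4 lie between 34.0 and 47.5 FPKM, and the highest value of any other regulator is 1.08 FPKM (GRHL1 in SKA3-KD 2).

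KLF5 lies on the plus strand of chromosome 13 of GRCh38 from 73054976 to 73077542 and KLF4 on the minus strand of chromosome 9 from 107484852 to 107490482. TP63 and SOX2 lie on the plus strand of chromosome 3, from 189631416 to 189897279 and from 181711924 to 181714436. GRHL1 is on chromosome 2 from 9951693 to 10002277 and GRHL3 on chromosome 1 from 24319322 to 24364482, both on the plus strand, and ZNF750 is on the minus strand of chromosome 17 from 82829435 to 82840578. SOX2 sits inside SOX2-OT, a long noncoding RNA of the same strand, and ZNF750 inside TBCD on the other strand, without shared exon bases in GENCODE 29. The values are per gene, so the TP63 isoforms with and without the N-terminal transactivation domain were not separated.

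To show the sequence in front of abundant and scarce regulators, the 250 bases before a start are printed for 5 of them, 5′ to 3′ (RefSeq, GRCh38.p14). Capitals mark GGGCGG, the GC box, and CACCC, the core of the CACCC box bound by Krüppel-like factors, each on either strand. The windows are chr9:107489770-107490019 (minus strand) for KLF4 and, on the plus strand, chr13:73054726-73054975 for the upstream start of KLF5, chr2:9951443-9951692 for GRHL1, chr3:189631139-189631388 for TP63 and chr3:181711675-181711924 for SOX2.
KLF4: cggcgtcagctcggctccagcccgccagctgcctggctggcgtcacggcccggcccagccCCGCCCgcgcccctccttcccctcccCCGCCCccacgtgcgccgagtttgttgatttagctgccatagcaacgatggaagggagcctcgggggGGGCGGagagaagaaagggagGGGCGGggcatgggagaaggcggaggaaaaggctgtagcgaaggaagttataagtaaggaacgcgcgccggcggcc
KLF5: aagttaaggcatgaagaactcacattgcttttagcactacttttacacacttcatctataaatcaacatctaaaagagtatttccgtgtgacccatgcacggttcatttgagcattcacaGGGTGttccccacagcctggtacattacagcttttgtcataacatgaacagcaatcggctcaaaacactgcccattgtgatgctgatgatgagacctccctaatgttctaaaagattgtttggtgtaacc
GRHL1: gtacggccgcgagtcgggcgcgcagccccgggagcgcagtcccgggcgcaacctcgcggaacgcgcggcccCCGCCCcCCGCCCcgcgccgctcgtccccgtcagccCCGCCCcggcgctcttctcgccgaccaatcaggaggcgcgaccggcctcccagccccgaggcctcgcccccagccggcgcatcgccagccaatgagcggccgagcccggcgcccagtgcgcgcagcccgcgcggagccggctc
TP63: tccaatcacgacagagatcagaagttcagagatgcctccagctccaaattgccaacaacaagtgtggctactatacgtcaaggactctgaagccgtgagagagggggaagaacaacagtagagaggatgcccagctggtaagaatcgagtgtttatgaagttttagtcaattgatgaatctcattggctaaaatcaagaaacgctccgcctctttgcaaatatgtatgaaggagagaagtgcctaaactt
SOX2: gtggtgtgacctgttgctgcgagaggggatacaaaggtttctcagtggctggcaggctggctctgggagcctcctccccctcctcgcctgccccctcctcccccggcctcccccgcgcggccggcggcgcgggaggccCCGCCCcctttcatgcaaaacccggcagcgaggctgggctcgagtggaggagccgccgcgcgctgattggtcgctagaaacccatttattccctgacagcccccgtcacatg

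The KLF4 window held 25 CpG dinucleotides and 4 GGGCGG matches, and it lies inside the GENCODE 29 span of the gene but outside its exons. The upstream KLF5 window held 3 CpG, no GGGCGG, 1 CACCC and 1 TATAAA, the letters of the TATA box, whereas the window of its downstream start (chr13:73058755-73059004, largely exonic in GENCODE 29) held 27 CpG, 2 GGGCGG and 2 CACCC. Among the scarce regulators GRHL1 had 45 CpG and 3 GGGCGG, and SOX2 had 20 CpG and 1 GGGCGG. The TP63 window, before the upstream end of the gene, had 6 CpG and none of these motifs. Starts within TP63 were not examined, and values per gene do not tell which KLF5 start was used. The upstream GRHL3 window had 3 CpG, 1 GGGCGG and 3 CACCC, and the downstream one had 10 CpG and 1 CACCC. Of 35114 RefSeq windows of this length 42.6% held GGGCGG, 54.7% CACCC and 10.7% TATAAA on either strand, 7.6% held at least 4 GGGCGG, and the median was 11 CpG. Windows above the median CpG count stood in front of abundant regulators (KLF4 and the downstream start of KLF5) and scarce ones (GRHL1 and SOX2). A match describes the letters of a window and is not a binding site.

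On the deposited FPKM scale none of the 8 regulators passed the threshold in SKA3-KD against NC. The main fit tested 2 of them and the fit without a minimum mean all 8. On recovered reads KLF5 alone passed, of 2 tested, or of 4 among genes averaging 10 reads or more. The test was limma on log2(FPKM + 1) for the 12645 genes whose mean was 1 FPKM or more, with a Benjamini-Hochberg adjusted p under 0.05 as the threshold. KLF4 and KLF5 were the 2 regulators tested, and 0 were lower and 0 higher (limma, also 0 at an unadjusted p under 0.05), where 6.11% of all genes tested were lower and 6.16% higher, or 12.3% in either direction. For KLF5 both SKA3-KD libraries lay below both NC libraries, with means of 39.2 ± 1.47 and 44.9 ± 3.65 FPKM (SD, n = 2 each). Its log2 fold change was -0.19 with SE 0.08 and a 95% interval of -0.39 to 0.01 (limma adjusted p = 0.168). Groups without overlap were found in 61.6% of the genes tested. On the recovered reads (NC 2211 and 1485, SKA3-KD 1591 and 1748), limma voom gave KLF5 -0.21 with an adjusted p of 0.0442, in a fit that called 12.8% of all genes lower, 12.5% higher and 25.3% in either direction. Over all alternatives the limma adjusted p of KLF5 ran from 0.0442 to 0.472, and its log2 fold change ran from -0.27 without NC 2 to -0.11 without NC 1.

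KLF4 differed between the groups by less than its spread, with 35.0 ± 1.48 FPKM in NC and 35.3 ± 1.62 FPKM in SKA3-KD (SD, n = 2 each). Its log2 fold change was 0.01 with SE 0.07 (limma adjusted p = 0.933), and the 95% interval of the difference was -0.16 to 0.18. The sign turned under quantile normalization (-0.01), without NC 1 (-0.03) and without SKA3-KD 2 (-0.04). KLF5 stood above KLF4 in every library, at an FPKM ratio of 1.40 and 1.17 in NC and 1.18 and 1.05 in SKA3-KD, and the groups overlapped in this ratio. With 2 libraries a group the smallest two-sided p of an exact permutation is 0.333, and limma therefore borrows the spread of other genes.

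**Figure D3:**
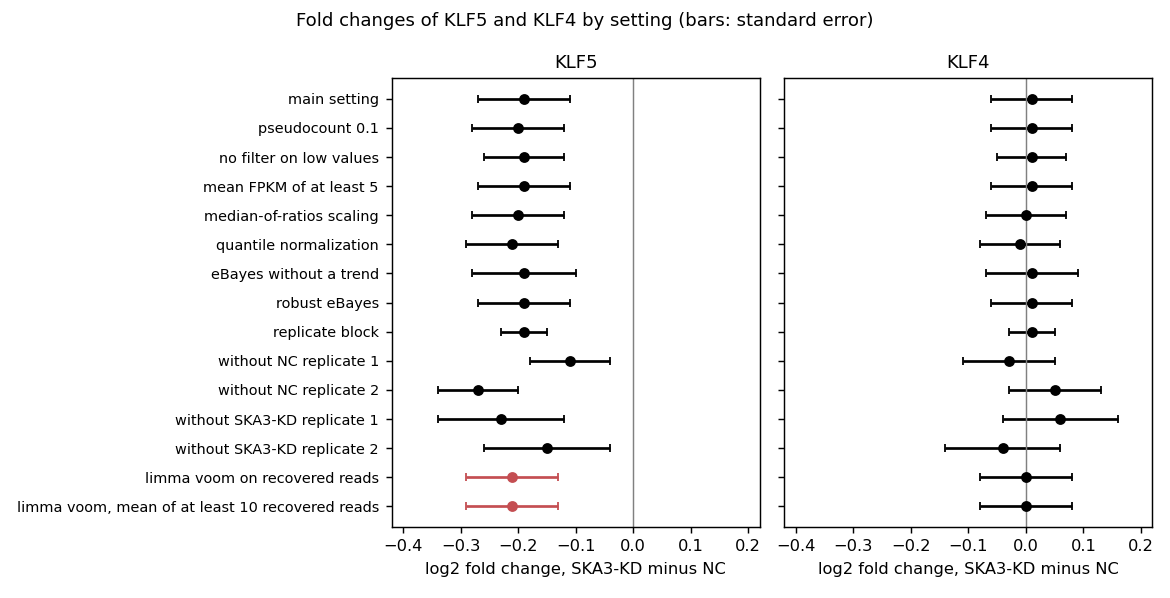
log2 fold change of KLF5 (left) and KLF4 (right), SKA3-KD minus NC, under each setting, with bars for the standard error and red for an adjusted p under 0.05. KLF5 lies below 0 in every setting, from -0.27 to -0.11, and is red in the voom settings alone, while KLF4 stays within -0.04 to 0.06.

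The basal factors TP63 and SOX2 rested on few reads. TP63 was counted 31 and 39 times in NC 1 and NC 2 against 40 and 38 times in SKA3-KD 1 and SKA3-KD 2. In FPKM its groups overlapped, at 0.464 ± 0.165 in NC and 0.480 ± 0.0672 in SKA3-KD (SD, n = 2 each). The ratio of summed reads, SKA3-KD over NC and corrected for library size, was 1.06 (95% exact binomial interval 0.761 to 1.49). Such intervals cover counting error only and compare libraries, not conditions. SOX2 counted 12 and 5 reads with NC against 3 and 0 reads with SKA3-KD, or 0.400 and 0.221 FPKM against 0.118 and 0 FPKM, and the groups did not overlap. The 0 in SKA3-KD 2 allows up to 0.101 FPKM (3 reads), and the ratio of summed reads was 0.169 (interval 0.0316 to 0.583). Without the filter on low values SOX2 did not pass (log2 fold change -0.31, limma adjusted p = 0.276). That fit called 0.306% of 26504 genes lower, 0.181% higher and 0.487% in either direction. It adds 1 to the FPKM before the log, which shrinks the fold change of a gene this low, unlike the ratio of reads.

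Among the grainyhead-like factors, GRHL1, which regulates desmosomal cadherins, was the most abundant. It had 63 and 55 reads in the NC libraries against 65 and 102 reads with SKA3-KD, or 0.657 and 0.762 against 0.798 and 1.08 FPKM. The groups did not overlap, and SKA3-KD 2 stood above the other 3 libraries. The ratio of its summed reads was 1.35 (interval 1.06 to 1.73). Limma voom on genes averaging 10 reads or more, a setting added after the data were seen that called 12.3% of 14058 genes lower, 11.5% higher and 23.8% in either direction, gave GRHL1 0.40 on the log2 scale (SE 0.22, adjusted p = 0.208). GRHL2, a factor of E-cadherin and tight junction genes, had 2 and 1 reads in NC and 5 in each SKA3-KD library. Its groups did not overlap, but the ratio of 3.18 had an interval of 0.82 to 18, so no difference was detectable at this depth. GRHL3, a factor of the epidermal barrier, had overlapping groups, with 5 and 7 NC reads, 5 and 11 SKA3-KD reads and a ratio of 1.27 (interval 0.565 to 2.95). GENCODE 29 places 50 exon bases of GRHL2 under an antisense gene, and whether counting used strand is not given in the sources used here.

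ZNF750, the zinc finger factor of terminal differentiation, had 3 and 2 reads in NC against 1 and 3 reads with SKA3-KD. Its groups overlapped, and the ratio of summed reads was 0.764 (interval 0.152 to 3.55). Of the 6 regulators with a mean under 1 FPKM, 3 (SOX2, GRHL1 and GRHL2) had groups without overlap, and of all genes above 0 under this level 29.7% had. Without the filter none of the 8 passed, with limma adjusted p-values from 0.276 for SOX2 to 0.969 for TP63.

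The relatives of these factors formed a list of 27 genes, TP73 and members of the SOX, KLF, OVOL and CP2 families, of which 25 had a row. Of 17 tested, 1 was lower, 1 was higher and 15 did not pass, and the median log2 fold change was 0.05 against 0.01 over all genes. On the FPKM scale 6.11% of all genes tested were lower and 6.16% higher. Limma voom on genes averaging 10 reads or more called 1 of 18 lower and 3 higher (12.3% and 11.5% of all genes). KLF9, a Krüppel-like factor induced by glucocorticoids, fell from 5.66 and 5.56 FPKM to 2.29 and 2.40 FPKM (log2 fold change -0.98, SE 0.08, limma adjusted p = 0.00932). KLF6, an early response Krüppel-like factor, rose from 4.38 and 4.16 FPKM to 5.92 and 5.86 FPKM (log2 fold change 0.39, SE 0.07, limma adjusted p = 0.0367). For both genes, named because they passed the threshold, the SKA3-KD and NC libraries did not overlap, as in 61.6% of all genes tested. Without NC 1, a fit in which no gene passed, the log2 fold changes were -0.97 for KLF9 and 0.42 for KLF6. The KLF9 call was also lost without NC 2, and the KLF6 call whichever library was left out.

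Within the KLF family, 15 of 16 listed genes had a row and 13 were tested, with 1 lower, 1 higher, 11 not past the threshold and a median log2 fold change of 0.05. The shares over all genes tested were 6.11% lower and 6.16% higher. The genes next in level to KLF5 and KLF4, named like the others of this paragraph after their values were seen, were KLF13 (21.1 to 24.9 FPKM) and KLF10 (15.7 to 18.5 FPKM). KLF15 was listed at 0 in all 4 libraries and KLF8 had at most 0.111 FPKM. KLF7 had 1.63 and 1.62 FPKM in NC and 2.44 and 2.50 in SKA3-KD but did not pass (limma adjusted p = 0.0753). Outside the family, the p63 relative TP73 lay at 0.729 to 0.919 FPKM, and the OVOL1 paralogue OVOL2 had at most 2 reads in a library.

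**Figure D4:**
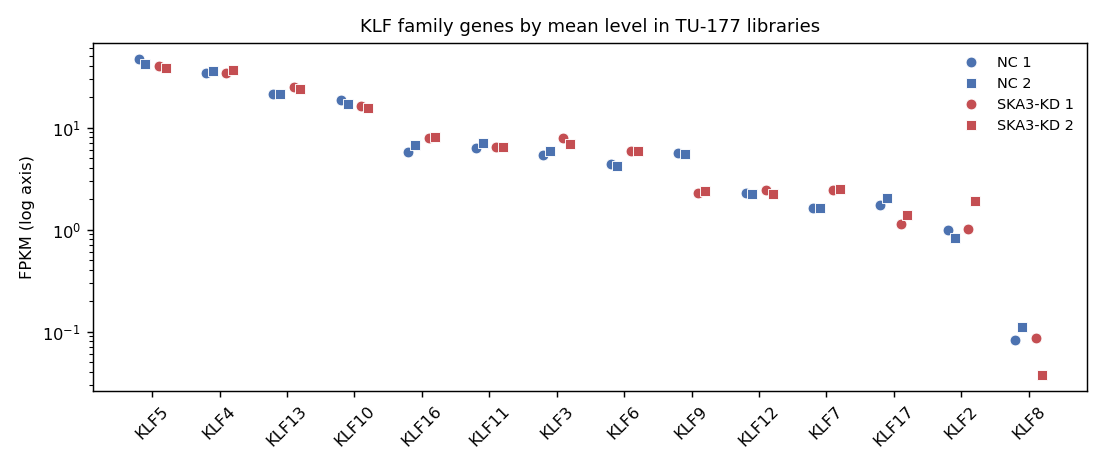
FPKM of the KLF genes above 0 in each library on a log axis, ordered by mean level. KLF5 and KLF4 lie at the top, and KLF9 shows the SKA3-KD libraries (2.29 and 2.40 FPKM) below the NC libraries (5.66 and 5.56 FPKM).

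Of 28 other regulators of epithelium, 20 had a row and 12 were tested. Of these 2 were lower, none was higher (limma, also 0 at an unadjusted p under 0.05) and 10 did not pass. Over all genes tested 6.11% were lower and 6.16% higher, and the median log2 fold change of the list was -0.04. Limma voom on genes averaging 10 reads or more called 5 of 16 lower and 1 higher, where it called 12.3% of all genes lower and 11.5% higher. ELF3, an epithelial ETS factor, fell from 9.03 and 9.84 FPKM to 6.09 and 6.40 FPKM (log2 fold change -0.53, SE 0.08, limma adjusted p = 0.022). FOXN1, a forkhead factor of keratinocytes and thymic epithelium, fell from 8.34 and 9.36 FPKM to 6.56 and 5.99 FPKM (log2 fold change -0.44, SE 0.09, limma adjusted p = 0.0405). Both calls were lost when any 1 library was left out (limma adjusted p from 0.0769 to 0.16). The AP-2 factors TFAP2A and TFAP2C, named after their values were seen, had log2 fold changes of 0.01 and 0.00 with 95% intervals of -0.15 to 0.18 and -0.16 to 0.16.

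**Figure D5:**
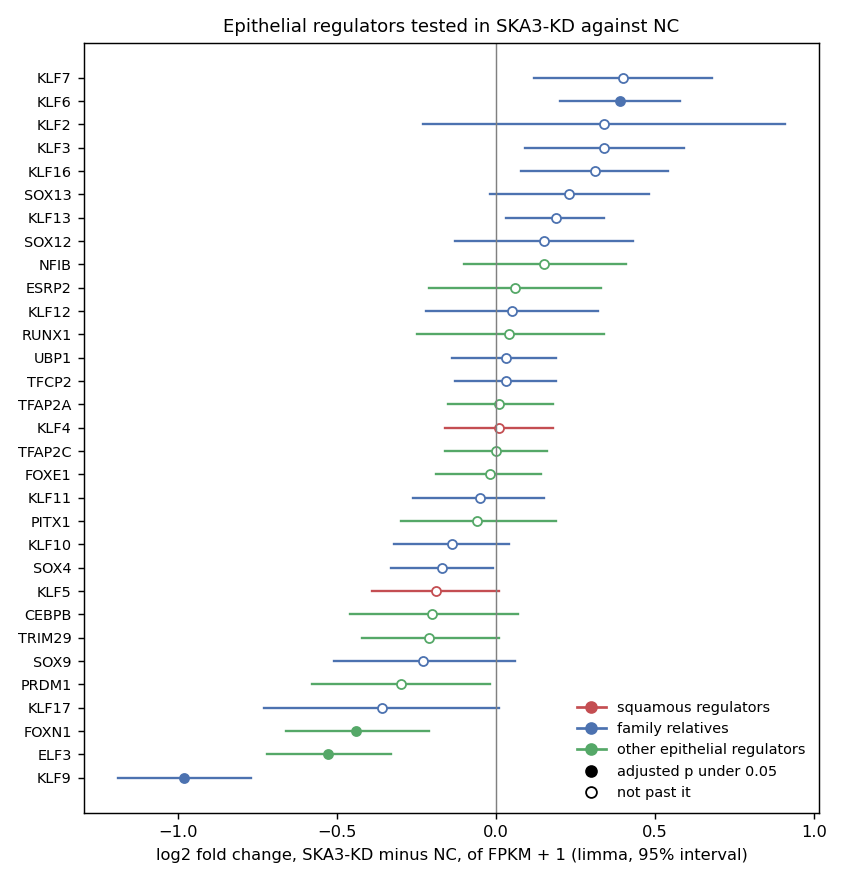
log2 fold change with 95% interval, SKA3-KD minus NC, for the tested regulators, coloured by list and filled where the adjusted p is under 0.05. KLF9, ELF3 and FOXN1 are filled on the negative side and KLF6 on the positive side, while KLF5 at -0.19 and KLF4 at 0.01 are open.

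Genes known to act downstream of the regulators were taken as lists. Of 27 basal and p63 target genes, 26 had a row and 15 were tested, with 1 lower, 1 higher and a median log2 fold change of -0.08. On the FPKM scale 6.11% of all genes tested were lower and 6.16% higher. The same voom fit called 5 of 19 lower and 3 higher, where it called 12.3% of all genes lower and 11.5% higher. PERP, a desmosomal protein induced by p63, fell from 72.7 and 66.1 FPKM to 20.5 and 18.6 FPKM (log2 fold change -1.77, SE 0.08, limma adjusted p = 0.0065). ITGB4, the integrin beta 4 of hemidesmosomes, rose from 12.5 and 15.1 FPKM to 28.0 and 32.7 FPKM (log2 fold change 1.08, SE 0.12, limma adjusted p = 0.014). Of 45 terminal differentiation genes, 22 had a row and 9 were tested, with 1 lower, 1 higher and a median of 0.03. Voom called 2 of 9 lower and 3 higher, beside 12.3% and 11.5% of all genes. DSC2, a desmosomal cadherin, fell from 6.72 and 6.02 FPKM to 3.49 and 3.40 FPKM (log2 fold change -0.73, SE 0.08, limma adjusted p = 0.015). EMP1, an epithelial membrane protein, rose from 7.24 and 6.39 FPKM to 17.5 and 15.2 FPKM (log2 fold change 1.15, SE 0.10, limma adjusted p = 0.0102). In these 4 genes, named because they passed the threshold, the groups did not overlap, as in 61.6% of all genes tested. Without NC 1 no gene passed, and the log2 fold changes were -1.71 for PERP, 1.23 for EMP1, 0.95 for ITGB4 and -0.66 for DSC2. The DSC2 call was lost whichever library was left out, and the ITGB4 call also without SKA3-KD 2.

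Of 19 junction genes known as targets of grainyhead-like or OVOL factors, 17 had a row and 10 were tested. Of these 2 were lower and 1 higher (6.11% and 6.16% of all genes tested), with a median of -0.05. The voom fit called 4 of 13 lower and 2 higher (12.3% and 11.5% of all genes). The tight junction claudins CLDN7 and CLDN1 moved in opposite directions. CLDN7 fell from 16.3 and 15.2 FPKM to 10.1 and 10.3 FPKM (log2 fold change -0.58, SE 0.07, limma adjusted p = 0.015) and CLDN1 rose from 2.78 and 3.66 FPKM to 6.30 and 5.46 FPKM (log2 fold change 0.71, SE 0.13, limma adjusted p = 0.0356). PROM2, a protein of membrane protrusions, fell from 2.81 and 2.84 FPKM to 1.77 and 1.58 FPKM (log2 fold change -0.52, SE 0.11, limma adjusted p = 0.0438). These 3 calls were lost when any 1 library was left out (limma adjusted p from 0.0522 to 0.159). Of 11 mesenchymal regulators and markers, 10 had a row and 8 were tested, with 1 lower, 1 higher and a median of -0.13. Voom called 2 of 9 lower and 3 higher, again beside 12.3% and 11.5% of all genes. SNAI2, the repressor SLUG, fell from 9.37 and 8.07 FPKM to 3.79 and 3.34 FPKM (log2 fold change -1.09, SE 0.10, limma adjusted p = 0.0112). CDH2, the gene of N-cadherin, rose from 5.27 and 5.00 FPKM to 8.91 and 9.88 FPKM (log2 fold change 0.76, SE 0.08, limma adjusted p = 0.0129). The CDH2 call was lost whichever library was left out, and the SNAI2 call without SKA3-KD 2. Without NC 1, a fit in which no gene passed, SNAI2 had a log2 fold change of -0.99.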

How the data were processed

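RNA of TU-177 cells was measured by RNA-seq in 4 libraries, grouped as NC and SKA3-KD from the sample titles. The authors deposited FPKM values per gene and library. Per the labels, the submitters' processing notes name HISAT2, Bowtie2 2.2.8, StringTie 1.3.1, Cuffdiff 2.1.1 and the build hg19, with no role or order. The annotation and strand setting are not given in the sources used here. FPKM is already divided by gene length and library size, while composition differences stay in.

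Symbols, positions and exon lengths came from GENCODE 29 and a gene name table for 27199 of 28729 genes. Reads (whole within 0.01) followed from this exon length for 68.1% of the genes above 0 and from that or another whole-number length for 100.0%. They summed to more than the inferred library sizes and serve as relative depth. Replicates differed by more than sampling noise (chi-square per degree of freedom 3.71 in NC and 3.66 in SKA3-KD).

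The test was limma 3.58.1 (R 4.3.3, lmFit and eBayes with a trend), checked on simulated data. Fold changes on log2(FPKM + 1) understate changes of low genes. It was repeated with a pseudocount of 0.1, without the filter, with a mean of 5 FPKM, median-of-ratios and quantile scaling, eBayes without a trend or robust, a replicate block, each library left out, limma voom and an adjusted p of 0.1. Members and lists were chosen with earlier results of these data known. The results of some genes are not reported here. Named were all members, SKA3, up to 3 genes per list and direction past the threshold and, for members past it, their most similar genes, of which there were none. Python 3.11.15, pandas 2.3.3, scipy 1.17.1 and matplotlib 3.10.9 were used.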

Additional observations from a re-analysis of the deposited data

How the results depend on the processing

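Limma voom on the recovered reads moved the count of squamous regulators lower past the threshold from 0 to 1 (KLF5), and voom on genes averaging 10 reads or more, added after the data were seen, also gave 1. With 1 library left out the counts stayed at 0 lower and 0 higher. Over all genes, 772 were lower and 779 higher. These became 81 and 48 without the filter, 381 and 312 without the trend, 1618 and 1581 with voom, 1732 and 1620 with voom on genes averaging 10 reads or more, and 1356 and 1442 at an adjusted p under 0.1. With 1 library left out, where the lone library of a group is assumed to vary like the others, they ran from 0 to 131 lower and from 0 to 82 higher, both 0 without NC 1 (limma, 1469 and 1644 at an unadjusted p under 0.05). KLF4 turned from 0.01 to -0.01 with quantile normalization and ran from -0.04 to 0.06 with 1 library left out, at -0.03 without NC 1 and -0.04 without SKA3-KD 2. The replicate block gave 965 lower and 1002 higher genes and 0 regulators in either direction. With the block, KLF5 had a log2 fold change of -0.19 (SE 0.04, limma adjusted p = 0.0715). Over 12645 genes the deviations of NC 1 and SKA3-KD 1 from their group means had a Pearson correlation of 0.0973. The replicate numbers were not taken as pairs in the main test. Of the 16 genes named from lists and markers, 2 passed without the filter, 11 without the trend, 13 with the replicate block (not FOXN1, PROM2 and CLDN1), and 0, 5, 6 and 4 without NC 1, NC 2, SKA3-KD 1 and SKA3-KD 2, and each kept its direction wherever tested. The cause of these shifts was not tested. Depth limits the 6 regulators under 1 FPKM, at 0 to 102 reads in a library.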
